A study of Eurytemora affinis with 15 samples.

Results

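The comparison set pools of male copepods held in sediment elutriate from Fatouville at 2500 mg/L against pools held in elutriate from Tancarville at the same concentration. It covers 6 of the 15 libraries of the series, and it takes in every gene with a normalised read count of at least 10 in at least 3 of those 6 libraries, which is 18311 of 23728 genes. The animals were adult males of Eurytemora affinis, a calanoid copepod, taken from the Seine estuary, acclimatised at a salinity of 15 psu and 15 °C, and exposed for 72 h. Each library was made from whole bodies of 30 pooled males, and each group had 3 such pools, which the labels call biological replicates. The Fatouville 2500 mg/L and Tancarville 2500 mg/L pools differed in the origin of the elutriate alone, so far as the labels say. The 9 other libraries were 3 controls kept in water without elutriate and 3 pools for each site at 350 mg/L. The animals came from a wild population rather than a culture, and a pool value is an average over animals whose own values are not seen. In whole-body libraries fewer cells of a type and less RNA per cell cannot be told apart.

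Eurytemora affinis dominates the zooplankton of many temperate estuaries and is a link between microalgae and fish. An elutriate is the water phase recovered after sediment has been shaken with water, and it carries what the sediment releases, such as metals, hydrocarbons, fine particles and nutrients. In arthropods such exposures are known to act on enzymes that oxidise and conjugate foreign compounds and on antioxidant and chaperone proteins. The question was whether elutriates of 2 sediments of the same estuary give different expression profiles at the same nominal concentration. The identifiers in the deposited table are not paired with gene names or products in the sources used here, so genes are given by identifier, with no function, and neither the sex nor the tissue make-up of a pool could be checked against marker genes.

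The 6 libraries held 13.6 to 17.2 M reads in genes, and a gene of the comparison had a median of 196 reads per pool. Pools of 1 group differed by far more than counting noise: chi-square statistics over genes were 34.1 to 55.5 times their degrees of freedom. The pools did not sort fully by site. Across genes, Tancarville pool 3 correlated more closely with the Fatouville pools (mean r = 0.955 on log2 values) than with the other Tancarville pools (mean r = 0.931). Tancarville pools 1 and 2 had a mean r of 0.939 and 0.95 with the other Tancarville pools and of 0.913 and 0.932 with the Fatouville pools. The Fatouville pools correlated with each other at r = 0.951 to 0.957 and less with Tancarville pools 1 and 2. By r the closest of all pairs was Fatouville pool 1 with Tancarville pool 3 (r = 0.971). Fatouville pool 2 was by r as close to Tancarville pool 3 (r = 0.956) as to the other Fatouville pools. The chi-square ratio did not give this order. Tancarville pool 3 was at 46.3 and 55.5 times the degrees of freedom from Tancarville pools 1 and 2. From Fatouville pools 1, 2 and 3 it was at 43.7, 55.6 and 68.4 times. The lowest ratio was that of Fatouville pool 3 with Tancarville pool 2 (25). The authors' deposited Cook's distance, a score for how far 1 library moves the fit of a gene, was above 5.64 for 19 genes in Tancarville pool 3, for 1 gene in Fatouville pool 1 and for 0 genes in the other 4 pools. Counts and folds that move with Tancarville pool 3 are given with and without it.

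No gene passed the adjusted threshold of the main test between the sites at 2500 mg/L, and the differences of genes without overlap were mostly small. With limma on log2(value + 1), 0 of 18921 genes tested (0%) had a Benjamini-Hochberg adjusted p below 0.05, and the smallest adjusted p was 0.0651, shared by 74 genes. At an unadjusted limma p below 0.05 there were 3717 genes (19.6%), 2166 higher at Fatouville (11.4%) and 1551 lower (8.2%). The edgeR quasi-likelihood test on the recovered reads also called 0 genes (0%), while DESeq2 called 881 (5.82% of the genes it gave an adjusted p), 581 higher (3.84%) and 300 lower (1.98%). The values of the 2 sites did not overlap in 4240 of the 18311 genes (23.2%), with all 3 Fatouville pools above all 3 Tancarville pools in 2224 (12.1%) and below them in 2016 (11%). These differences were small, with a median fold of 1.34 among the former and 1.30 among the latter. With no site difference, 3 against 3 pools would be without overlap in a share of about 0.1 of genes. An unadjusted limma p would be below 0.05 in a share of about 0.05. Genes share the 6 pools and are not independent, so neither count is a test of a site difference. For a typical gene the 95% confidence interval reached 0.39 to either side of the log2 fold change, or 1.31-fold, so that smaller site differences could not be resolved with 3 pools.

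The number of genes called depended on which pools were in the fit. Without Fatouville pool 1, limma called 998 genes, 833 higher and 165 lower, of which 557 were among the 881 of DESeq2. Without Tancarville pool 3 it called 3, all higher (LOC111710162, LOC111711211 and LOC111711547), and without any 1 of the other 4 pools it called 0. For LOC111711211 and LOC111711547 the pool left out lay within the Fatouville range. Tancarville pool 3 was at 697.2 for the former, against 656.9 to 865.9 in the Fatouville pools. For the latter it was at 54.5, against 45.63 to 94.33. DESeq2 called 1633 genes without Fatouville pool 1 but 91 without Fatouville pool 2 and 126 without Tancarville pool 1. It called 297 without Fatouville pool 3, 530 without Tancarville pool 2 and 645 without Tancarville pool 3. Of its 881 calls, 59 were made again in each of these 6 fits, 42 higher and 17 lower. A further fit left out Control 3, Fatouville 350 mg/L pool 2 and Tancarville 2500 mg/L pool 3. This set was chosen from earlier results of these data because they stood apart from their groups. In that fit limma called 893 genes, 566 higher and 327 lower. Leaving out libraries picked in this way removes spread within groups, so these calls are no support for a site difference.

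**Figure D1:**
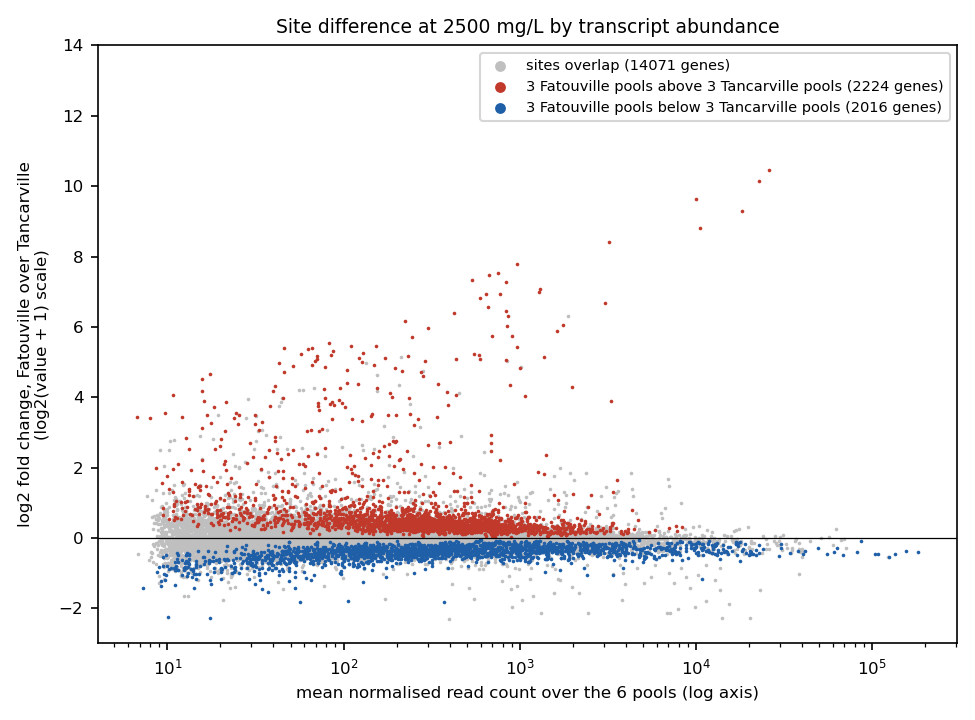
Log2 fold change of Fatouville over Tancarville at 2500 mg/L (y axis, log2(value + 1) scale) against the mean normalised read count over the 6 pools (x axis, log scale), 1 point per gene. Red points are the 2224 genes with all Fatouville pools above all Tancarville pools, blue points the 2016 with all below, grey points the rest. Red points reach log2 fold changes above 10, blue points do not go below -2.29, and blue points prevail at the highest abundance.

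The next genes were taken by smallest p in each direction among genes with non-overlapping sites and a mean of at least 50 over the 6 pools. The smallest p there was that of LOC111710162. Its normalised read count was 1875, 2388 and 2469 in Fatouville pools 1, 2 and 3 and 893, 1040 and 1236 in Tancarville pools 1, 2 and 3. The Fatouville pools were all above the highest Tancarville pool, and the mean was 2.13 times as high (95% confidence interval 1.66 to 2.72; log2 fold change 1.09 with an SE of 0.17, adjusted p = 0.0651 by limma). DESeq2 called the gene (adjusted p = 7.12e-06), and limma called it without Tancarville pool 3. It stood at 960, 1058 and 1495 in the controls and at 797 to 1060 in the 6 pools at 350 mg/L, so the Fatouville pools at 2500 mg/L were above all other 12 libraries, while the Tancarville pools at 2500 mg/L overlapped with the unexposed animals.

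LOC111702887 was the second gene by p among those higher at Fatouville. Its counts were 532, 644 and 636 in the Fatouville pools and 347, 392.2 and 366 in the Tancarville pools, a ratio of 1.635 (95% confidence interval 1.39 to 1.92; log2 fold change 0.71 with an SE of 0.11, adjusted p = 0.0651 by limma). The groups did not overlap, and the 3 controls, at 413, 433 and 508, lay between them.

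Among genes lower at Fatouville, LOC111701255 had the smallest p, with counts of 98.9, 96.4 and 104 in the Fatouville pools and 176, 199.6 and 192 in the Tancarville pools. The ratio was 0.531 (95% confidence interval 0.424 to 0.664; log2 fold change -0.91 with an SE of 0.15, adjusted p = 0.0651 by limma). The Fatouville pools were also below the lowest control, which was at 128, and the Tancarville pools overlapped with the controls, which reached 187.

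LOC111698119 was the next of the lower genes, at 384, 388 and 389 in the Fatouville pools and 599, 595 and 528 in the Tancarville pools. The ratio was 0.676 (95% confidence interval 0.582 to 0.785; log2 fold change -0.56 with an SE of 0.10, adjusted p = 0.0651 by limma). Its 3 Fatouville pools lay within 6 counts of each other and below all other 12 libraries of the series. DESeq2 called LOC111702887, LOC111701255 and LOC111698119 (adjusted p = 3.03e-05, 0.00045 and 0.000615), and edgeR called none of the 4 genes (adjusted p = 0.0729 for each).

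**Figure D2:**
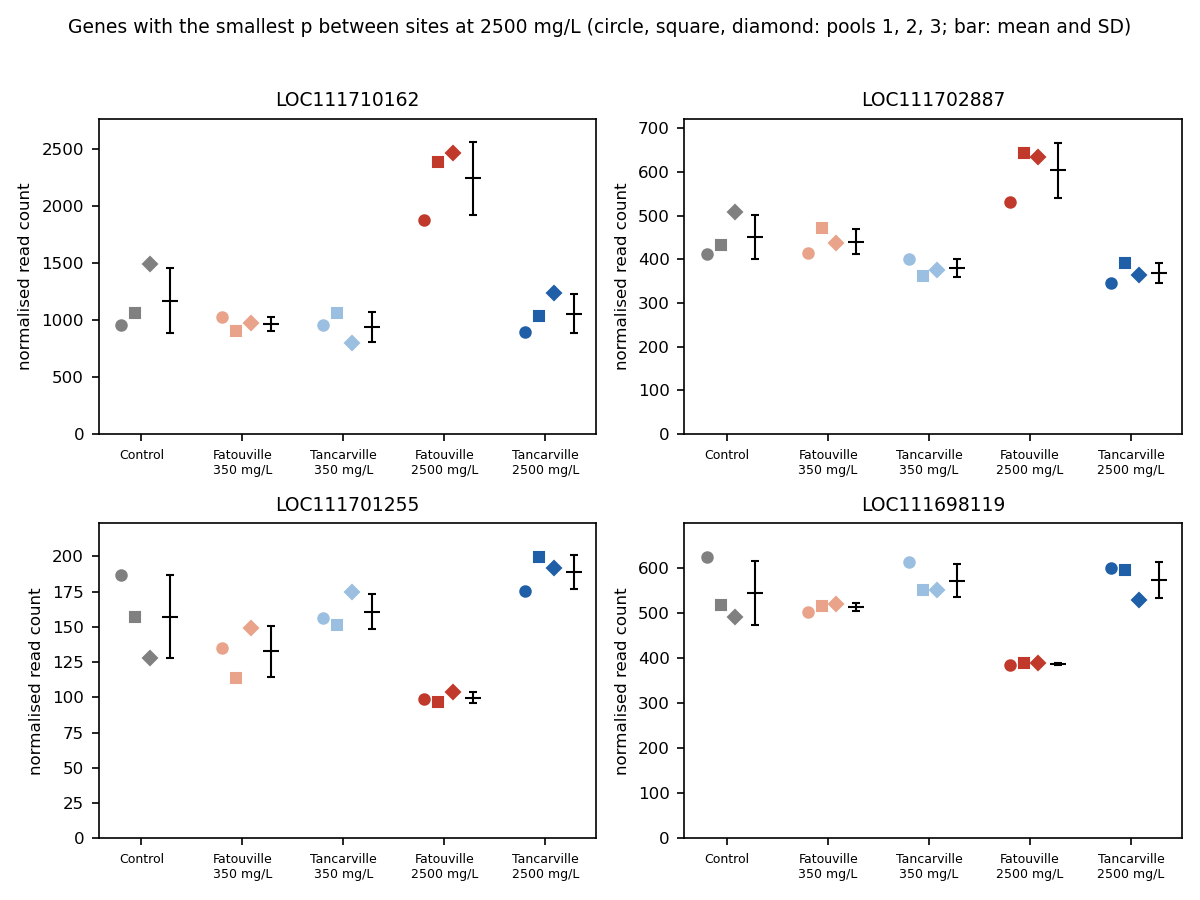
Normalised read count (y axis, from 0) of the 4 genes with the smallest p between the sites in each of the 15 pools, by group (x axis), with mean and SD. In the upper panels the Fatouville 2500 mg/L pools lie above the Tancarville 2500 mg/L pools (1875 to 2469 against 893 to 1236 for LOC111710162), and in the lower panels the order is the reverse (384 to 389 against 528 to 599 for LOC111698119).

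A fit of the 6 libraries alone, in which the spread comes from these pools and not from the whole series, called 5 genes, all higher at Fatouville. They are named here after their values were seen. LOC111708771 was at 4034, 6602 and 5616 in the Fatouville pools and at 1624, 1606 and 1850 in the Tancarville pools, 3.14 times as high (95% confidence interval 1.94 to 5.07 in the fit of all libraries). LOC111697183 was at 1552, 2505 and 2365 against 597, 551 and 637, 3.52 times as high (95% confidence interval 2.11 to 5.88). The other 3, LOC111697131, LOC111698710 and LOC111706520, were 4.01, 2.32 and 2.47 times as high at Fatouville. All 5 had close values in the 3 Tancarville pools, pool 3 included, and DESeq2 called all 5 (adjusted p from 7.12e-06 to 0.00266). In the fit of all 15 libraries their limma adjusted p was 0.0651 to 0.0668.

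These 5 genes were not high in the Fatouville pools alone. LOC111708771 was at 3603 in Control 3 but at 1293 and 1418 in Controls 1 and 2, and LOC111697183 was at 1578 in Control 3 against 643 and 481. Control 3 thus had, without any elutriate, levels near those of Fatouville pool 1, and the 6 pools at 350 mg/L lay at 1312 to 1701 for the former gene and 446 to 590 for the latter.

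The same held across the genes that separated the sites. Of the 581 genes that DESeq2 called higher at Fatouville, 540 (92.9%) were highest in Control 3 among the 3 controls, against 36.3% of all 18311 genes. Of the 300 called lower, 216 (72%) were lowest in Control 3, against 38.2% of all genes. Among the 2224 genes that did not overlap and were higher at Fatouville, Control 3 was the highest control in 1673 (75.2%), and among the 2016 lower it was the lowest in 1333 (66.1%). The controls enter neither the site contrast nor the choice of the non-overlapping genes, but they share in the estimate of spread behind the DESeq2 calls. Control 3 exceeded the mean of the other 2 controls by a median of 0.39 on the log2 scale over the 581 genes and by a median of -0.01 over all genes. Tancarville pool 3 was the highest Tancarville pool in 46% of the 581, against 37% of all genes. The part of what set Control 3 apart in the difference between the sites was not tested.

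Differences of 2-fold or more were fewer and mostly in 1 direction. There were 554 genes at least 2-fold higher at Fatouville (3.03% of 18311) and 119 at least 2-fold lower (0.65%). These genes were picked for this difference, so their levels are given as a description. Their median count was 111, 152 and 108 in Fatouville pools 1, 2 and 3 and 8.95, 14.01 and 68.1 in Tancarville pools 1, 2 and 3. In the controls it was 9.39, 9.56 and 46.8. Tancarville pool 3 was the highest Tancarville pool in 458 of the 554 (82.7%) and reached or passed the lowest Fatouville pool in 209, against 27 for pool 1 and 115 for pool 2. Without Tancarville pool 3, 845 genes were at least 2-fold higher and 111 at least 2-fold lower. The 119 lower genes had medians of 30.4, 26.5 and 28.65 in the Fatouville pools, 81.7, 47.9 and 91.1 in the Tancarville pools and 44.1, 45.9 and 29.3 in the controls. The lower group was the less stable in number, with 258 genes without Fatouville pool 1, 218 without Tancarville pool 1 and 216 without Tancarville pool 2.

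The widest differences belonged to transcripts that were nearly absent from some pools and abundant in others of the same group. LOC111705506 and LOC111694749, which had the largest fold changes among non-overlapping genes and were singled out after their values were seen, show the pattern. LOC111705506 was at 22055, 99253 and 19940 in the Fatouville pools, at 0 in Tancarville pools 1 and 2 and at 15991 in Tancarville pool 3. LOC111694749 was at 15769, 90485 and 16057 in the Fatouville pools, and again at 0 in Tancarville pools 1 and 2 and at 15317 in pool 3. Both were at 0 in Controls 1 and 2 and at 32081 and 30152 in Control 3, in that order. With such a spread the log2 fold changes of 10.45 and 10.16 had SEs of 5.24 and 5.28, and neither passed (limma adjusted p = 0.303 and 0.319). The size of these differences depended on the method and on Tancarville pool 3. In edgeR, which averages on the count scale, the log2 fold changes were 3.15 and 3.00 (adjusted p = 0.643 and 0.657). Without Tancarville pool 3 the remaining Tancarville pools were at 0 and the log2 fold changes, then set in part by the pseudocount, were 15.1 and 14.79 (limma adjusted p = 0.176 and 0.188). With Control 3 and Fatouville 350 mg/L pool 2 left out as well, both genes passed (limma adjusted p = 0.0307 and 0.0436). The libraries left out were those of their groups that held these genes, with Fatouville 350 mg/L pool 2 at 1238 and 1068. The rest of these groups were at 0, so leaving the libraries out removed the spread within the groups. This pass is therefore no support for a site difference.

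In all, 63 genes were below 10 in at least 1 of the 6 pools and at or above 1000 in another. At a level of 100 or more, Fatouville pools 1, 2 and 3 held 63, 53 and 47 of them, and Tancarville pools 1, 2 and 3 held 0, 24 and 63. Fatouville pool 1 and Tancarville pool 3 thus held the whole set, and Tancarville pool 1 held none. The genes took 1.00%, 2.92% and 0.882% of the reads of the Fatouville pools and 0.00239%, 0.105% and 0.915% of those of the Tancarville pools. Site differences of these genes had SEs of 1.51 to 5.28 on the log2 scale and adjusted p of at least 0.12 by limma, and DESeq2 called 1 of the 59 to which it gave an adjusted p. With all pools 62 of the 63 had a positive log2 fold change, and the median was 4.85. Without Tancarville pool 3 the median was 6.24, and 57 of them met the same rule in the other 5 pools. Without Tancarville pool 1 only 33 were positive, the median was 3.94, the lowest was -1.91 and 44 met the rule. Without Tancarville pool 2 the median was 3.17, with 60 positive. Leaving out a Fatouville pool gave medians of 4.15 to 5.33 and 50 to 58 positive. The direction of this set thus rested in large part on Tancarville pool 1.

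The 63 genes did not all follow 1 pattern. In 39 of them Tancarville pool 2 was below 100. These had medians of 795, 2120 and 1455 in the Fatouville pools, 3.36 and 3.50 in Tancarville pools 1 and 2 and 627 in Tancarville pool 3. In Control 3, 32 of the 39 were at or above 100. The 39 also mix patterns: 7 of them were below 100 in Fatouville pool 3 and at 12.3 or less in Control 3. In Tancarville 350 mg/L pool 1 these 7 were at 83.1 to 445. In the other 24 Tancarville pool 2 was at or above 100. Their medians were 1674, 556 and 170 in the Fatouville pools and 6.16, 435 and 1148 in the Tancarville pools, and 0 of the 24 reached 100 in any control. These medians mix patterns: 10 of the 24 were below 100 in Fatouville pool 2 alone of the Fatouville pools, 9 in Fatouville pool 3 alone, and 5 in neither. At 350 mg/L, 20 of these 24 were at or above 100 in Tancarville pool 1, 6 were in Fatouville pool 2 and 3 in Tancarville pool 2, while 0 were in Fatouville pools 1 and 3 and in Tancarville pool 3.

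**Figure D3:**
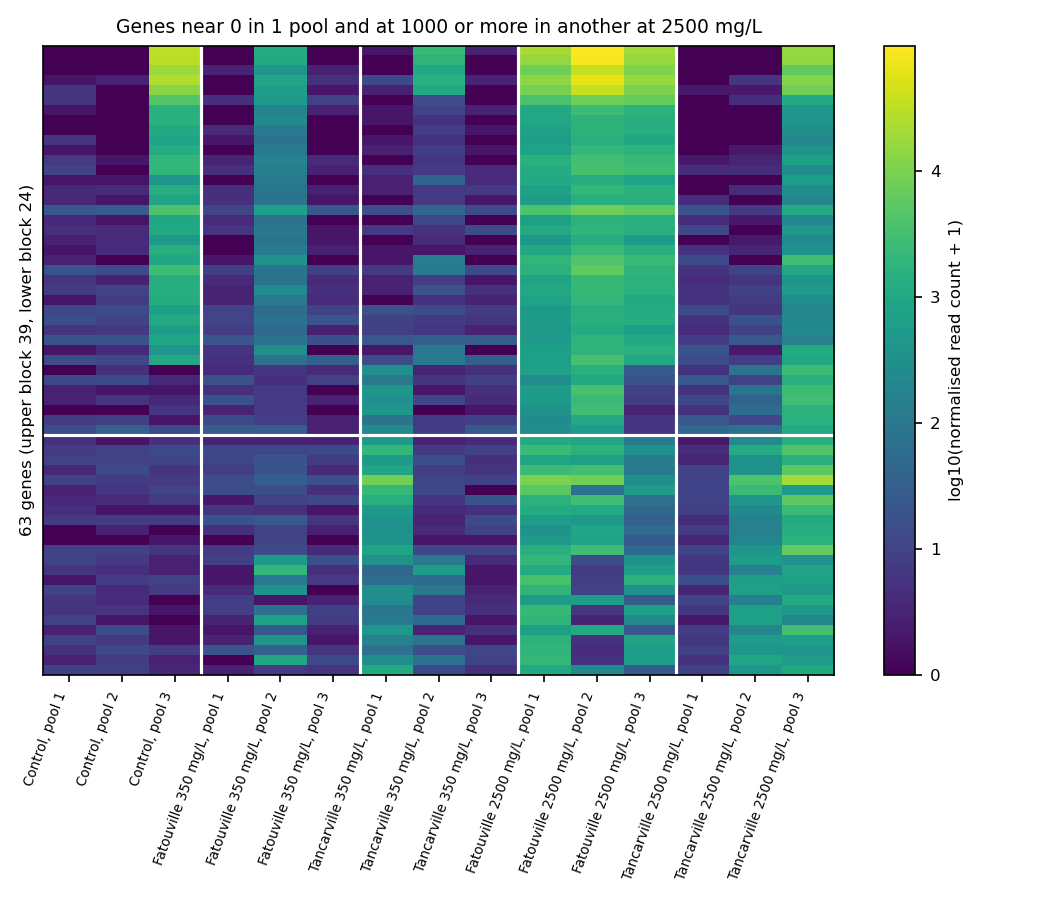
Heat map of the 63 genes that were below 10 in 1 pool and at 1000 or more in another at 2500 mg/L, 1 row per gene and 1 column per pool, coloured by log10(normalised read count + 1). White lines separate the groups and the 39 genes with under 100 counts in Tancarville 2500 mg/L pool 2 (upper block) from the other 24. Most of the upper block is bright in the Fatouville 2500 mg/L pools, Tancarville 2500 mg/L pool 3 and Control 3. In Fatouville 2500 mg/L pool 3 and in Control 3, 32 of the 39 genes are at 100 or more. The lower block is dark in Tancarville 2500 mg/L pool 1 and in all controls.

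A further gene singled out after its values were seen had nearly all of its reads in the Fatouville 2500 mg/L pools. LOC111697735 had 104 reads over the 3 Fatouville pools, at 51.3, 13.8 and 39.3 normalised counts, and 1 read over the 3 Tancarville pools, at 0, 0 and 0.94. It was at 0 in Control 3 and in all 6 pools at 350 mg/L. It passed the filter on low values through the Fatouville pools alone, so its difference is a description here. It was the 1 gene called when no such filter was applied, and again the 1 gene called when the moderation used neither trend nor robust weights.

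The direction of the site difference changed with transcript abundance. Of the 478 genes with a mean of at least 5000 over the 6 pools, 169 (35.4%) were lower in all Fatouville pools than in all Tancarville pools and 11 (2.3%) were higher. From 1000 to 5000 the shares were 18.1% lower and 10.5% higher among 2259 genes, and from 200 to 1000 they were 10.5% lower and 17.5% higher among 6524 genes. Below 50 they were nearly equal, at 6.79% and 6.66%. The median log2 fold change was -0.19 in the most abundant class and 0.05 from 200 to 1000. Without Tancarville pool 3 the most abundant class had 56.1% lower and 2.51% higher genes and a median of -0.21, and with fewer pools non-overlap is more frequent by construction. The most abundant class took 44.6%, 44.7% and 45.0% of the reads of Fatouville pools 1, 2 and 3 and 51.1%, 48.6% and 47.5% of those of the Tancarville pools. The difference in means was -4.35 percentage points with no overlap between pools (exact permutation over pools, 2-sided p = 0.1, which is the minimum for 3 against 3; 0.2 after adjustment over 4 library measures). This pattern depended on the scaling: the authors' size factors and TMM scaling gave it alike (34.7% lower and 2.3% higher in the top class with TMM), and quantile normalisation, which forces the same distribution on each library, turned it to 3.14% lower and 13.4% higher.

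**Figure D4:**
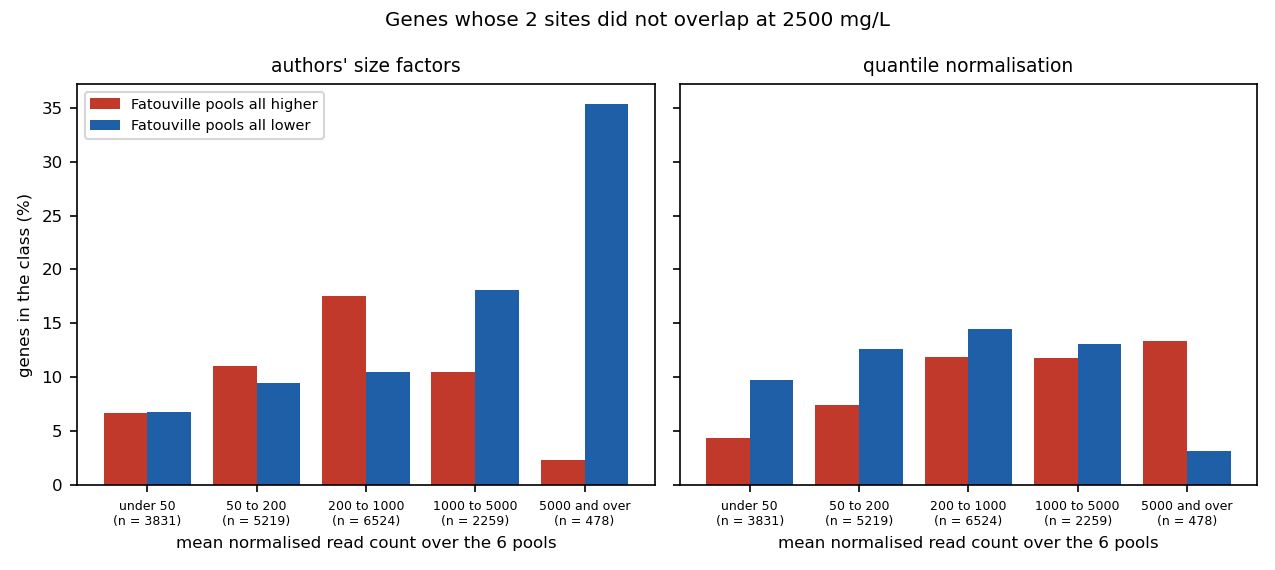
Share of genes (y axis, percent) whose Fatouville 2500 mg/L pools were all above (red) or all below (blue) the Tancarville 2500 mg/L pools, in 5 classes of mean normalised read count (x axis, with the number of genes). With the authors' size factors (left) the top class holds 35.4% lower and 2.3% higher genes, and with quantile normalisation (right) 3.14% and 13.4%.

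More genes were detected in the Fatouville pools. At least 1 read was found for 20867, 20850 and 20833 genes in Fatouville pools 1, 2 and 3 and for 20637, 20576 and 20652 genes in the Tancarville pools, although Tancarville pool 3 was the deepest of the 6 libraries. The difference of 228 genes between the means was larger than the spread within either group (SD 17 and 40.3, n = 3, exact permutation over pools, 2-sided p = 0.1, again the minimum; 0.2 after adjustment over 4 library measures). For genes with a count of at least 10 the sites overlapped, at 17993 to 18280 for Fatouville and 17857 to 18196 for Tancarville (n = 3, exact permutation p = 0.5; 0.667 adjusted). The total reads did not separate the sites either (n = 3, exact permutation p = 0.7; 0.7 adjusted).

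The site difference at 2500 mg/L was set beside that at 350 mg/L, which rests on other libraries. At 350 mg/L limma called 0 genes (0%) and edgeR 0 (0%), 880 genes (4.65%) had an unadjusted limma p below 0.05, and DESeq2 called 5 (0.0228%), 2 higher (0.00912%) and 3 lower (0.0137%). The sites did not overlap in 1868 of the 18311 genes at 350 mg/L (10.2%), 985 higher at Fatouville (5.38%) and 883 lower (4.82%). This is near the share of 0.1 that 3 against 3 pools would give with no site difference. The list at 350 mg/L is therefore not read as genes that differ. The median absolute log2 fold change was 0.14 at 350 mg/L and 0.22 at 2500 mg/L. Of the 2224 genes higher without overlap at 2500 mg/L, 254 were so at 350 mg/L too, which is 11.4% of the former list and 25.8% of the latter. Of the 2016 lower genes, 186 were so at both concentrations, 9.23% and 21.1% of the lists. The opposite direction was seen in 45 of the 2224 and 40 of the 2016. Across the 18311 genes the log2 fold changes at the 2 concentrations had a Pearson r of 0.17 and a Spearman rho of 0.20, given as a description since genes share libraries and are not independent. Genes at least 2-fold apart leaned the other way at 350 mg/L, with 109 higher (0.595%) and 271 lower (1.48%) at Fatouville. These 2 counts were not taken with a pool left out, and single pools stood out at 350 mg/L. Over the 24 genes of the lower block described above, the medians were 377, 10.7 and 3.93 in Tancarville 350 mg/L pools 1, 2 and 3. In Fatouville 350 mg/L pools 1, 2 and 3 they were 4.49, 20.7 and 4.34.

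Whether the site difference itself changed with concentration was tested by the interaction, and limma called 0 genes (0%; smallest adjusted p = 0.63) and edgeR 0 (0%). At an unadjusted limma p below 0.05 there were 1465 genes (7.74%), 877 with a positive difference (4.64%) and 588 with a negative one (3.11%), and DESeq2 called 1 (0.00456%). That gene, LOC111705060, also had the smallest limma p. It was at 731, 958 and 822 in the Fatouville pools and at 471, 554 and 590 in the Tancarville pools at 2500 mg/L. At 350 mg/L the order was the reverse, at 614, 555 and 566 for Fatouville and 772, 710 and 680 for Tancarville, with no overlap at either concentration. The difference between the site effects was 0.95 on the log2 scale (SE 0.18, limma adjusted p = 0.63, DESeq2 adjusted p = 0.0156).

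The other genes with the smallest interaction p also crossed over without passing. LOC111712854, a gene of few reads, was at 20.9, 37.1 and 29.7 against 11.2, 5.84 and 10.3 at 2500 mg/L, and at 12.2 to 17.4 against 21.4 to 25.1 at 350 mg/L (interaction 2.25, SE 0.48, limma adjusted p = 0.63). In the negative direction, LOC111709551 was at 1.90, 6.36 and 8.49 against 16.8, 32.7 and 38.5 at 2500 mg/L, with 16 and 84 reads in all, and its values overlapped at neither concentration (interaction -3.08, SE 0.71, limma adjusted p = 0.63). LOC111709983 was at 154, 147 and 133 against 234, 199.6 and 225 at 2500 mg/L and at 179 to 196 against 140 to 149 at 350 mg/L (interaction -0.97, SE 0.23, limma adjusted p = 0.63). With the 3 libraries that stood apart left out, limma called 172 genes for the interaction, 163 with a positive and 9 with a negative difference. These libraries were picked from these data for standing apart, and leaving them out removes spread within groups. The calls are therefore no support for an interaction.

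Finally, the 6 genes known from earlier results of these data to differ between exposed and control pools were compared between the sites. All 6 were chosen for their difference from the controls, which is not tested again here. None differed detectably between the sites at 2500 mg/L. LOC111712699 was at 664, 439 and 590 in the Fatouville pools and at 1256, 589 and 700 in the Tancarville pools, with overlap, against 3044 to 3434 in the controls. The ratio of Fatouville to Tancarville was 0.693 (95% confidence interval 0.463 to 1.04; log2 fold change -0.53 with an SE of 0.27, adjusted p = 0.298 by limma), so a Fatouville level down to 0.463 times that of Tancarville lay within the interval. At 350 mg/L this gene was at 759, 1240 and 1371 at Fatouville and at 556, 591 and 576 at Tancarville, with Fatouville above Tancarville in every pairing of pools. The interaction was -1.45 (SE 0.38, limma adjusted p = 0.63).

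LOC111717563 had a similar course, at 107, 58.3 and 76.4 in the Fatouville pools and at 153, 61.9 and 104 in the Tancarville pools at 2500 mg/L, and its ratio of 0.787 had a wide interval (0.471 to 1.31; limma adjusted p = 0.628). LOC111708389, the gene with higher levels in exposed pools, was at 818, 781 and 895 against 854, 964 and 799, with a ratio of 0.954 (95% confidence interval 0.824 to 1.10; limma adjusted p = 0.763). At 350 mg/L the same gene was at 600.3 to 651 at Fatouville and at 838 to 977 at Tancarville, without overlap (log2 fold change -0.50 with an SE of 0.10, adjusted p = 0.862 by limma), and it was among the 5 genes that DESeq2 called there (adjusted p = 0.0156). LOC111712470, LOC111712343 and LOC111696545 had ratios of 0.842, 0.98 and 0.869 at 2500 mg/L. Their 95% confidence intervals were 0.686 to 1.03, 0.769 to 1.25 and 0.724 to 1.04, and their limma adjusted p 0.339, 0.949 and 0.389. In all 3 the pools of the sites overlapped, and all 6 pools were below the lowest control.

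**Figure D5:**
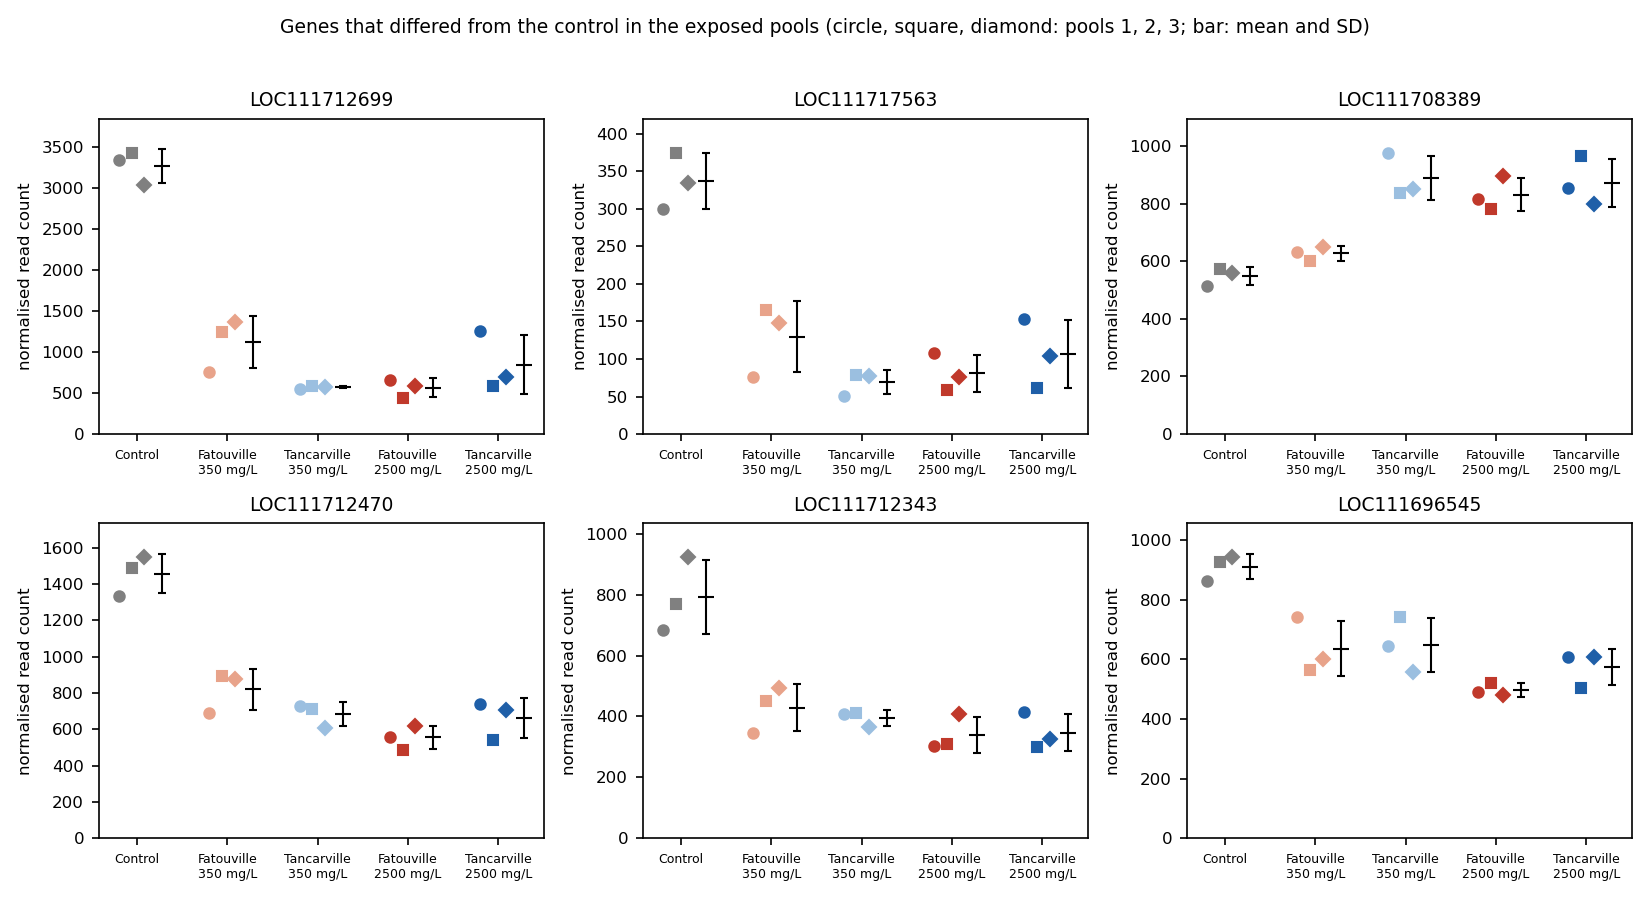
Normalised read count (y axis, from 0) of the 6 genes that differed from the controls in exposed pools, in each of the 15 pools by group (x axis), with mean and SD. The Fatouville and Tancarville 2500 mg/L pools overlap in each panel, and for LOC111712699 (439 to 664 and 589 to 1256) they lie far from the controls (3044 to 3434).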

How the data were processed

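RNA of whole males was made into mRNA libraries from 200 ng of total RNA, per the labels' protocols. Of tools, STAR, HTSeq 0.11.2, Salmon and DESeq2 appear in the submitters' processing notes, with no roles. The build, gene models and strandedness were not given in the sources used here, so near-identical or overlapping genes may share reads. The deposited values are a signal, read counts that the authors divided by 1 size factor per library. All values above 0 were whole multiples of 1 read (100%, relative tolerance 1e-04), and size factors recomputed from them matched in all 15 libraries. The deposited table also holds a score, Cook's distance.

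The 18921 genes that reached 10 in 3 or more of the 15 libraries were tested with limma 3.58.1 (R 4.3.3) on log2(value + 1), 1 mean per group, intensity trend and robust moderation, and p-values were adjusted over all 18921 by Benjamini-Hochberg (2-sided, 0.05). Fold changes on this scale understate changes of genes with few reads. edgeR 4.0.16 (0 calls) and DESeq2 1.42.0 (881 calls) on recovered reads were alternatives, and an adjusted p that DESeq2 left out stayed missing. P-values of genes set a difference against the spread between pools. The sample titles do not say whether pools of a group had separate vessels or elutriates. The p-values therefore cannot be read as covering variation between elutriates or sediment samples of a site. Per library, 4 measures were compared by exact permutation. Intervals of ratios come from limma.

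Genes were named by smallest p with non-overlapping sites and a mean of at least 50 (2 per direction), by smallest interaction p (2 per direction), and from 6 genes of earlier results; others are marked. Members, lists and rules were chosen with earlier results of these data known. The 22 lists written as patterns in product names could not be applied, since 0 matched an identifier.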

Additional observations from a re-analysis of the deposited data

How the results depend on the processing

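The number of genes called between the sites at 2500 mg/L was 0 by limma and stayed 0 with 8 of the other settings, among them pseudocounts of 0.5 and 5, stricter filters, TMM or quantile scaling and edgeR. It was 1 without a filter on low values, 1 without trend and robust moderation, 5 in a fit of the 6 libraries alone, 881 with DESeq2 and 893 without the 3 libraries that stood apart. Leaving out each pool gave 0 to 998. At 350 mg/L it was 0, 5 with DESeq2 and 0 to 1 with a pool left out. The interaction gave 0, 1 with DESeq2, 172 without the 3 libraries that stood apart and 0 with each single pool left out. Since the 3 libraries were picked from these data for standing apart, the 893 and 172 calls are no support for a site difference or an interaction. The cause of the changes in number was not tested.

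Alternatives chosen after seeing the data were the following. DESeq2 called 91 to 1633 genes with a pool left out. Genes at least 2-fold higher numbered 458 to 845 with a pool left out, and those at least 2-fold lower 111 to 258, 75 with a pseudocount of 5 and 211 with quantile scaling. Non-overlapping genes numbered 2728 to 4408 (higher) and 2579 to 3537 (lower) with a pool left out, since fewer pools overlap less, and 1662 and 2292 with quantile scaling against 2224 and 2016. In the most abundant class quantile scaling gave 64 higher and 15 lower in place of 11 and 169, and leaving out a pool gave 12 to 21 higher and 173 to 268 lower. The 63 genes below 10 in 1 pool and at 1000 or more in another numbered 44 to 60 with a pool left out.

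The log2 fold change of LOC111712343 between the sites, -0.03, turned to 0.046 without Fatouville pool 1, 0.034 without Fatouville pool 2 and 0.11 without Tancarville pool 1 (range -0.17 to 0.11). That of LOC111708389, -0.07, turned to 0.0068 without Tancarville pool 2 (range -0.13 to 0.0068). No other gene named changed the direction of its site difference or, for the 4 genes chosen by it, of its interaction in the alternatives run for it; LOC111711211 and LOC111711547 were not followed through them. The 4 genes named by smallest p in each direction between the sites passed in 3 or 4 of 19 alternatives each, with limma, edgeR or DESeq2 adjusted p from 7.12e-06 to 0.26.

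The labels number the pools 1 to 3 in each group. Deviations of pools with the same number correlated at -0.367, -0.321 and -0.406 between the sites at 2500 mg/L. These values cannot show whether the numbers pair the pools, since neither the genes nor the deviations of 3 pools are independent. At 350 mg/L the correlations were 0.103, 0.316 and 0.359, all above 0.1. With the replicate block limma called 0 genes at 2500 mg/L (smallest adjusted p = 0.0609), 0 at 350 mg/L (0.988) and 0 for the interaction (0.628), so the block changed no call.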
